A study of Mus musculus with 8 samples.

Results

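The enzymes that break down fatty acids in mitochondria and peroxisomes were compared between mouse colon tumors and normal colon. The set comprised 40 genes, chosen by symbol or older alias among the gene names of the array, out of 21638 genes in the comparison as a whole. Of the 40, 39 entered the comparison, and the 39 were above the detection limit in all 8 samples; Acot3 was not compared, because it reached the limit in only 2 of 8. By the known location of their products, 18 of the 40 are mitochondrial, 12 peroxisomal and 4 found in both organelles (Ech1, Crat, Amacr and Mlycd). A further 5 encode the long-chain acyl-CoA synthetases Acsl1, Acsl3, Acsl4, Acsl5 and Acsl6, and 1 encodes the cytosolic thioesterase Acot1. These genes were read by 55 probes, of which 52 passed the limit, and 10 genes had more than 1 such probe; the brightest stood for its gene.

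RNA was taken from adult C57BL/6 mice, with 4 samples of colon adenoma and 4 of normal colon, each from a separate mouse and each on its own single-colour array. All 8 animals carried ApcHet, 1 mutant copy of Apc, the tumor suppressor that restrains beta-catenin. The tumors were Tcf4Het ApcHet and the normals Tcf4WT ApcHet, so that tumor and Tcf4 genotype cannot be told apart; Tcf4 is an older name of Tcf7l2, a DNA-binding partner of beta-catenin. RNA came from the last 2.5 cm of the colon, and the sources used here do not say whether the normal pieces lay beside tumors. Whole pieces of tissue were used, so epithelium was measured together with muscle, stroma and blood cells.

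In beta-oxidation a fatty acid is first activated to an acyl-CoA and then shortened from its carboxyl end by repeated rounds of dehydrogenation, hydration, a second dehydrogenation and thiolysis. Mitochondria oxidise short to long chains, of which the long ones enter as carnitine esters. They pass the electrons through the electron transfer flavoprotein to the respiratory chain. Peroxisomes shorten very long, branched and dicarboxylic chains with a separate set of enzymes and alpha-oxidise branched ones. Differentiated colonocytes are known for burning fatty acids, above all butyrate from bacteria.

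Levels are log2 normalised intensities from the authors' table, differences are tumor minus normal on the log2 scale, and a gene is called where its limma p-value, adjusted over all 21638 genes by the Benjamini-Hochberg method, was under 0.05. The deposited scanner files and the columns of the table disagreed on sample identity. Of 8 columns, 4 matched a scanner file exactly in rank order, and of these the columns normal 1, normal 2 and tumor 2 matched the files under normal 2, normal 3 and normal 4. Samples are therefore named by their column labels, and with the scanner values as filed no gene was called (408 at an unadjusted p under 0.05) and 11 of the 16 members called below had the opposite sign. The sample labelled normal 3 also stood apart: its correlation with the tumors was 0.947 to 0.966 and that with the other normals 0.872 to 0.941. Normal 1 was near both groups, at 0.925 to 0.956 with the tumors and 0.938 to 0.941 with the other normals. The targeted gene Tcf7l2 was lower in the samples labelled tumor, at 12.81 ± 0.38 (SD, n = 4) against 14.56 ± 0.31. All 4 samples labelled tumor, at 12.33 to 13.20, lay below all 4 labelled normal, at 14.19 to 14.85, normal 3 included. Whether the genotype or the tumor lowers Tcf7l2 cannot be told apart, and which sample labels are right was not tested. The sources used here do not say whether the Tcf7l2 probe lies in the mutated part. Over all genes, 7.54% were called lower and 7.0% higher in the tumors (14.5% in either direction), and the median difference was 0.15.

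Among the 39 genes of fatty acid oxidation, 14 were called lower in the tumors and 2 higher, beside those background shares of 7.54% and 7.0%. The 14 were Acadm, Hadh, Decr1, Acaa2, Echs1, Hadhb, Acad8, Etfa, Etfdh and Acot2 of the mitochondrion, Ehhadh, Hacl1 and Decr2 of the peroxisome, and Crat of both, and the 2 were Acsl4 and Acot1. In none of the 16 did the 4 tumors overlap the 4 normals. Counting every gene, called or not, 20 of the 39 had all tumors below all normals and 2 had all tumors above, against 11.9% of all genes in each direction. The median difference of the 39 was -0.41, and 31 lay below 0, as did 42.1% of all genes. Fewer cells that hold these enzymes and less of their RNA per cell cannot be told apart in such bulk samples.

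The calls varied with the samples and with pairing. With the title numbers 1 to 4 as a block, 8 members were lower and 1 higher, where 5.03% and 3.60% of all genes were called (8.64% in all). Without normal 3, 18 were lower and 4 higher, against 19.8% and 31.7% of all genes (51.5% in all), so that the higher count was then well under its background. Without tumor 3 none of the 16 passed, and without normal 4 only 3 did, while the counts over all genes were 21 and 160. The count of lower members was 3 without tumor 2, 4 without normal 1 and 3 without normal 2, the columns whose scanner file disagreed; over all genes 379, 555 and 620 were then called, in the same order, in place of 3147. Both pairs known to share a slide, tumor 1 with normal 1 and tumor 2 with normal 2, showed the direction of the call in all 16 members. Any tumor and normal must do so where the groups do not overlap, so this adds nothing to the calls.

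**Figure D1:**
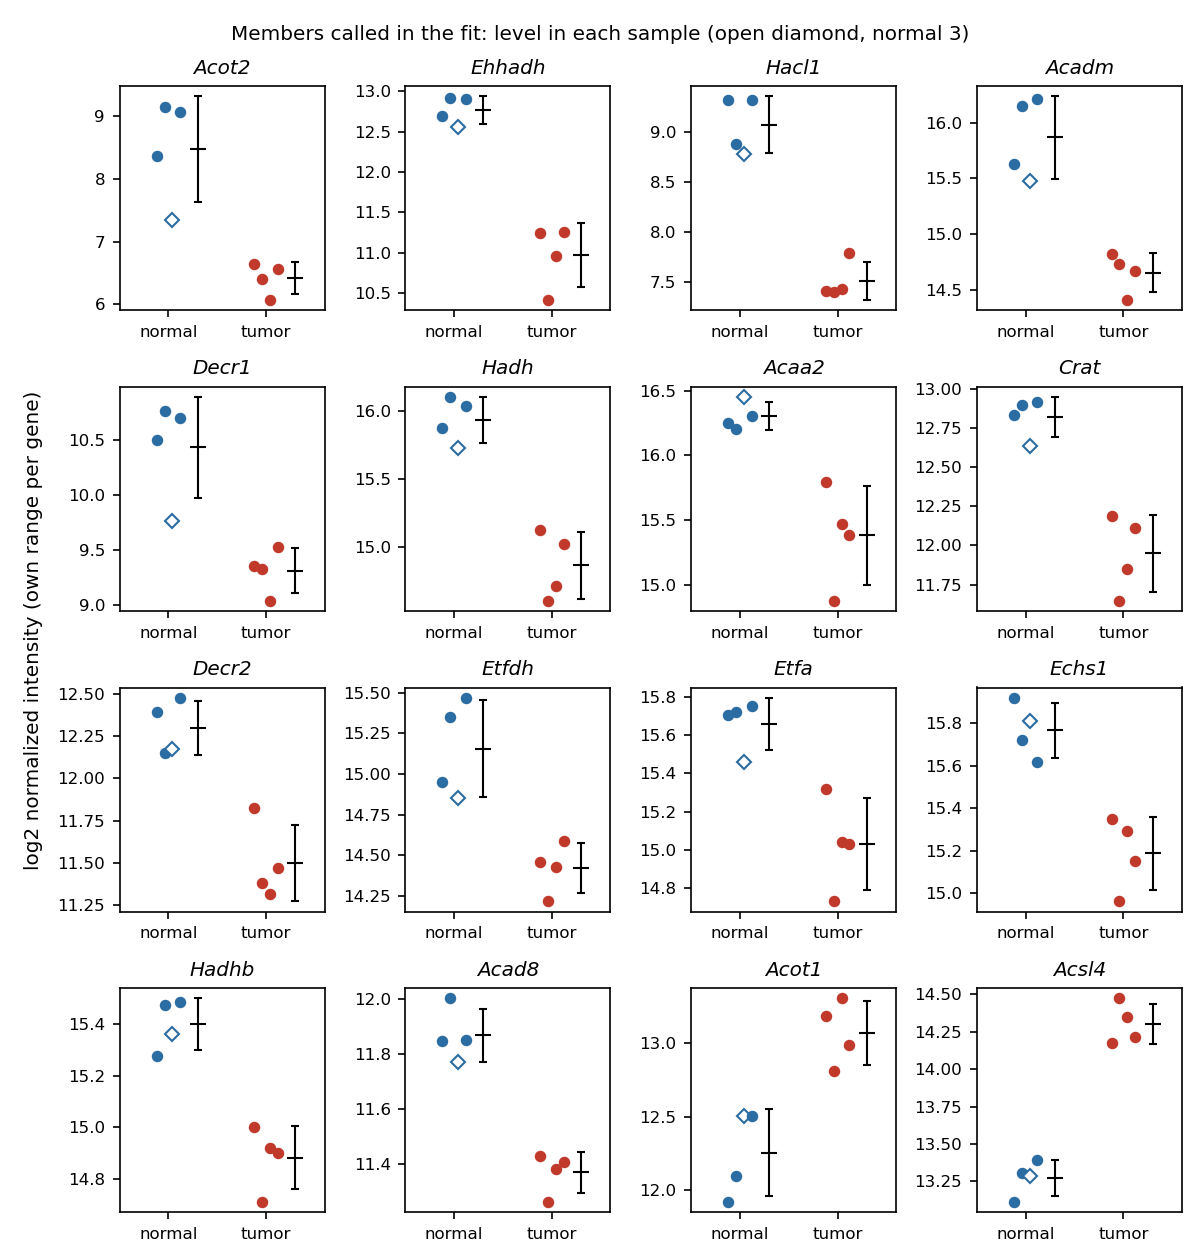
Level of each of the 16 called members in each sample, as log2 normalised intensity on a range of its own per gene, with blue points for the 4 normals, red points for the 4 tumors, an open diamond for normal 3, and the mean with its SD beside each group. The groups do not overlap in any panel, and normal 3 is the lowest normal in 10 of the 14 members that were lower in the tumors.

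Besides the thioesterase Acot2, described with its neighbours below, the mitochondrial members with a difference of at least 1 were Acadm, Decr1 and Hadh. Acadm, the medium-chain acyl-CoA dehydrogenase that opens a round of oxidation, stood at 15.63, 16.15, 15.48 and 16.22 in normals 1 to 4 and at 14.82, 14.73, 14.41 and 14.67 in tumors 1 to 4. All tumors were below the lowest normal, normal 3. The difference of -1.21 ± 0.21 (SE), 2.32-fold, was called at an adjusted p of 0.0183 and also with the block, at 0.0398. Hadh, which carries out the second dehydrogenation on medium and short chains, was at 15.87, 16.11, 15.73 and 16.04 in the normals and at 15.12, 14.60, 14.72 and 15.02 in the tumors. Again the groups were apart, with tumor 2 the lowest and tumor 1 the highest tumor. Hadh fell by 1.07 ± 0.17, or 2.10-fold (adjusted p = 0.0164).

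Decr1, the mitochondrial dienoyl-CoA reductase needed for unsaturated chains, had normals of 10.51, 10.76, 9.77 and 10.70 and tumors of 9.35, 9.34, 9.04 and 9.53. Normal 3 lay nearer to the tumors than to the other normals. The difference was -1.12 ± 0.24, 2.17-fold, at an adjusted p of 0.0281, and -1.34 without normal 3. A second Decr1 probe differed by -1.35, with an adjusted p of 0.0572 when every probe was tested by itself. Decr2, the peroxisomal counterpart, was at 12.39, 12.15, 12.18 and 12.48 in the normals and 11.82, 11.38, 11.31 and 11.47 in the tumors. It was thus lower in every tumor too, and fell by 0.80 ± 0.16 (adjusted p = 0.0230).

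The remaining steps of the mitochondrial round moved by less. Acaa2, the thiolase of the mitochondrial matrix, differed by -0.92 ± 0.20 (adjusted p = 0.0287), Echs1, the short-chain hydratase, by -0.58 ± 0.14 (0.0360), and Hadhb, the thiolase subunit of the trifunctional protein, by -0.51 ± 0.12 (0.0358). Acad8, which acts in the breakdown of valine, differed by -0.50 ± 0.12 (0.0329). With the block these 4 missed the threshold, at adjusted p-values of 0.0515, 0.0584, 0.0822 and 0.0782 in the same order. Hadha, the other subunit of the trifunctional protein, differed by -0.41 ± 0.13 without passing (adjusted p = 0.0770), although its 4 tumors, 10.50 to 10.84, lay below its 4 normals, 10.88 to 11.10. A second Hadha probe, which reached the detection limit on 5 of 8 arrays, pointed the other way, at 0.36 (adjusted p = 0.668 over probes).

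Hadha and Hadhb start 272 bases apart and are read in opposite directions, so the window before Hadhb overlaps most of the window before Hadha. It is shown beside those of Echs1 and Etfa, the called members of this group whose windows held a match to the element bound by PPAR with RXR, the receptor pair known for switching on fatty acid oxidation genes. The element searched was a direct repeat of AGGTCA with 1 free base between the copies, on both strands, with at most 2 mismatches, and capitals mark the match. Each line gives the 250 bases before the start site, 5′ to 3′ on the strand of the gene, from RefSeq on GRCm38.p6, at chr5:30155003-30155252 (plus strand), chr7:140116422-140116671 (minus) and chr9:55512244-55512493 (minus).
Hadhb: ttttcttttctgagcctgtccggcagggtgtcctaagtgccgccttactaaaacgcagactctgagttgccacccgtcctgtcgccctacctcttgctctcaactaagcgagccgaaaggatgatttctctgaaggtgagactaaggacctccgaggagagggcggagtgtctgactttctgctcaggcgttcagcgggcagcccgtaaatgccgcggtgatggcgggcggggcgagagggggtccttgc
Echs1: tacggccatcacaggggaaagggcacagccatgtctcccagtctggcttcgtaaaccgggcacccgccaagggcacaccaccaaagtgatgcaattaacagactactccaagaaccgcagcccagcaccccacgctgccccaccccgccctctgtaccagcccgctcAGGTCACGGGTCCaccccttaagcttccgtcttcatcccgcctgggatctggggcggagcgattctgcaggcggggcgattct
Etfa: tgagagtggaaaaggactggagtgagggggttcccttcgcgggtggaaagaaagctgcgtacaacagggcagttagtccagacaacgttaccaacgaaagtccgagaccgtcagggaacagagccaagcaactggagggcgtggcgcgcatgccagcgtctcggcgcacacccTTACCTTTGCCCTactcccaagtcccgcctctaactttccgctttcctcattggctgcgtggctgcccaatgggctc

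The matches began 83 bases before the Echs1 start and 77 bases before the Etfa start. Of the 40 genes 35 had a window in the table used, and 3 of these held a match (Echs1, Etfa and Acot4), or 8.57%, beside 3.72% of 27025 genes. For the half-site of estrogen-related receptors, TCAAGGTCA with no mismatch, 1 of the 35 had a match (Acsl6), or 2.86%, beside 0.422% of all genes. These are matches of letters in a short window, and binding was not measured.

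Electrons leave the acyl-CoA dehydrogenases through a heterodimeric carrier and a membrane-bound oxidoreductase. Etfa, the alpha subunit, was at 15.71, 15.72, 15.46 and 15.75 in the normals and at 15.32, 14.73, 15.04 and 15.03 in the tumors. Etfb, the beta subunit, was at 16.36, 15.94, 16.59 and 16.06 against 16.59, 16.31, 16.48 and 16.41, with the groups overlapping. The alpha subunit thus had every tumor below every normal, while for the beta subunit normals 1 and 3 lay within the range of the tumors. The difference was -0.63 ± 0.16 for Etfa (adjusted p = 0.0402, with the block 0.0731), and Etfb differed by 0.21 ± 0.17 (adjusted p = 0.376). Etfdh, the oxidoreductase that hands these electrons to ubiquinone, was lower by the same test, with a difference of -0.73 ± 0.18 (adjusted p = 0.0378, with the block 0.0653), and its second probe differed by -1.42.

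Among the acyl-CoA dehydrogenases the differences were uneven. Acadvl, for very long chains, differed by -0.30 ± 0.12 (adjusted p = 0.129), with no overlap between the groups. Acadl, for long chains, differed by -0.05 ± 0.18 (adjusted p = 0.840), Acad9, also an assembly factor of complex I, by -0.16 ± 0.22 (0.571), and Acadsb, for short branched chains, by -0.58 ± 0.29 (0.193). None of these 4 was called, and the second probe of Acad9 gave -1.16. Cpt2, which turns acylcarnitines back into acyl-CoA inside the mitochondrion, differed by -0.12 ± 0.16 (0.575), and Eci1, the enoyl-CoA isomerase, by 0.09 ± 0.17 (0.710). Without normal 3, Acadsb was called lower, with a difference of -0.85 (adjusted p = 0.0136).

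**Figure D2:**
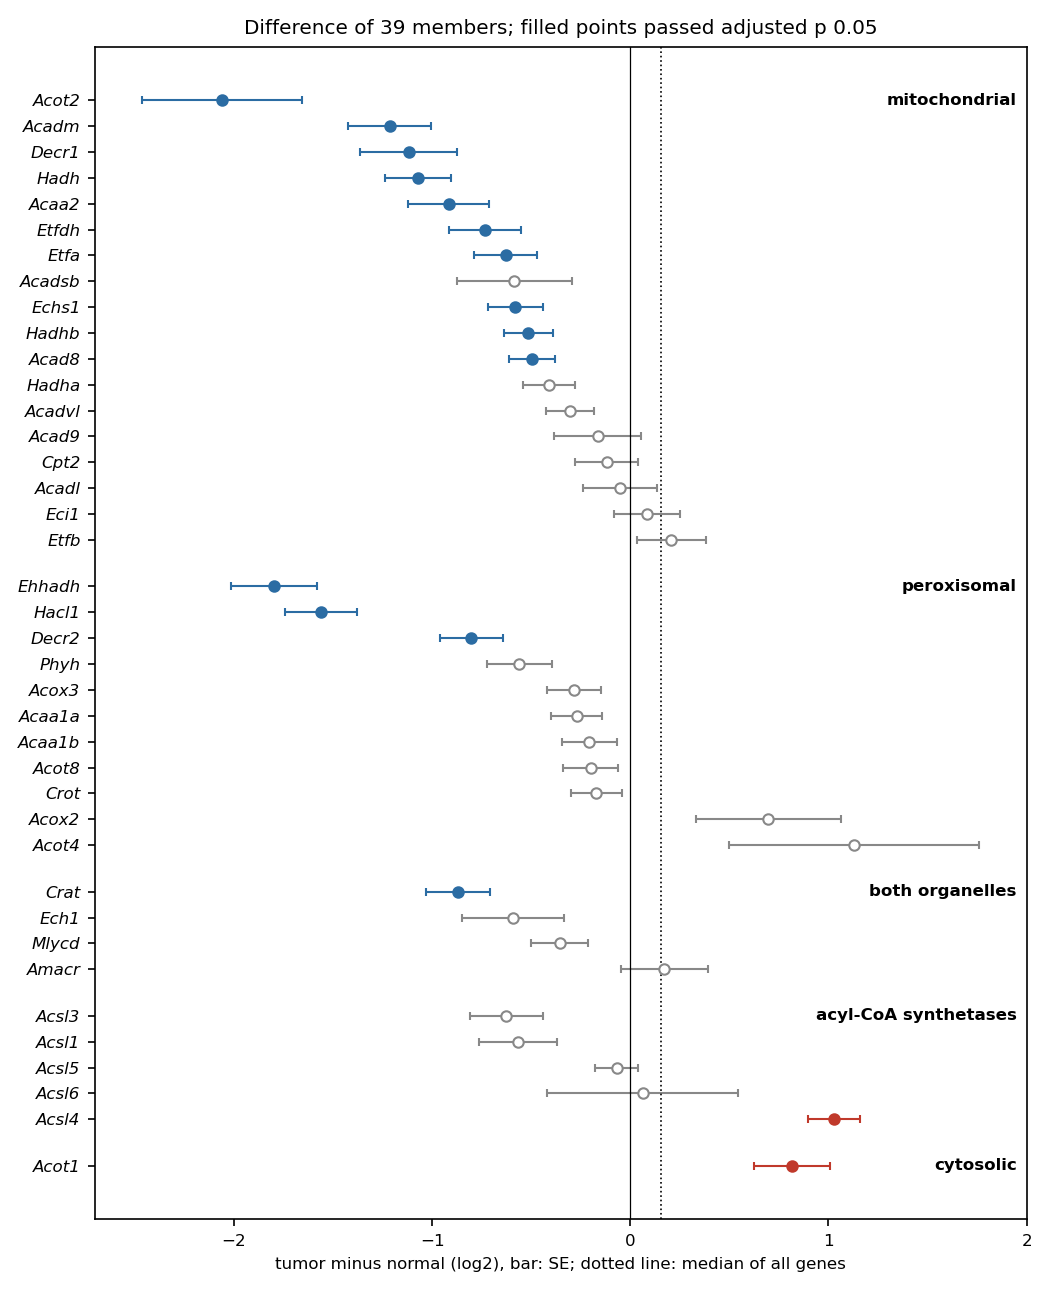
Difference between tumor and normal (log2, point) with its SE (bar) for the 39 genes, grouped by the location of their product; filled blue points were called lower, filled red points higher and open grey points were not called. The dotted line is the median of all genes, 0.15. Filled blue are 10 of the 18 mitochondrial genes and 3 of the 11 peroxisomal ones, where 7.54% of all genes were called lower. With the block these counts were 4 and 3.

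Of the 11 peroxisomal genes compared, 3 were lower: Ehhadh, Hacl1 and Decr2. Ehhadh, the bifunctional hydratase and dehydrogenase that also handles dicarboxylic acids, was at 12.69, 12.92, 12.56 and 12.90 in the normals and 11.24, 10.41, 10.96 and 11.26 in the tumors. Every tumor was more than 1 log2 unit below every normal. The difference of -1.80 ± 0.22, 3.48-fold, had an adjusted p of 0.0123 and of 0.0362 with the block. Hacl1, the lyase that cleaves 2-hydroxy acyl-CoA in alpha-oxidation, was at 9.31, 8.88, 8.78 and 9.31 in the normals and 7.41, 7.40, 7.43 and 7.79 in the tumors. The first 3 tumors were nearly level, under the highest column limit of 7.70, and tumor 4 was higher, still below all normals. Hacl1 was lower by 2.95-fold, a difference of -1.56 ± 0.18 (adjusted p = 0.0123, with the block 0.0361).

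The probe of Ehhadh lies at chr16:21675824-21675883 and that of Hacl1 at chr14:30436856-30436915, both on mm8, the build of the array. The window before Ehhadh is given because this gene had the largest difference among the peroxisomal members; it held no match to either element, and it comes from RefSeq on GRCm38.p6, chr16:21787835-21788084, minus strand.
Ehhadh: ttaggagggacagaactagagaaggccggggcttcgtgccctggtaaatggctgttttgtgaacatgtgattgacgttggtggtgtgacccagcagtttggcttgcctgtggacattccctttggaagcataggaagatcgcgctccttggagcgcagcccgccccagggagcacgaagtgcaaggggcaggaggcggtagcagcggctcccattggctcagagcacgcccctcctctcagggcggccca

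Other peroxisomal enzymes were not called. Phyh, the hydroxylase that acts ahead of Hacl1 on branched chains, stood at 15.56 to 15.80 in the normals and 14.84 to 15.37 in the tumors, without overlap, and differed by -0.56 ± 0.16 (adjusted p = 0.0575). The peroxisomal thiolase is encoded by near-identical genes. Acaa1a was at 16.52, 16.69, 16.54 and 16.72 in the normals and 16.55, 16.25, 16.26 and 16.32 in the tumors, a difference of -0.27 ± 0.13 (adjusted p = 0.184). Acaa1b was at 12.84, 12.51, 12.90 and 12.72 against 12.64, 12.41, 12.47 and 12.62, a difference of -0.21 ± 0.14 (adjusted p = 0.278). In both genes the groups overlapped, and whether each probe reads only its own copy was not tested. Crot, which moves shortened chains onto carnitine for export, differed by -0.17 ± 0.13 (0.326), with -1.16 from its second probe, and Acot8, a broad peroxisomal thioesterase, by -0.20 ± 0.14 (0.298).

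Neither of the acyl-CoA oxidases among the members, which open the peroxisomal round, was called. Acox2, the oxidase of branched chains and bile acid precursors, was at 9.38, 8.38, 10.16 and 9.03 in the normals and 10.02, 9.53, 10.21 and 9.98 in the tumors. Normal 3 lay among the tumors and the other 3 normals below them. The difference of 0.70 ± 0.37 was not called (adjusted p = 0.204), but was 1.0 and called without normal 3 (adjusted p = 0.0238). Acox3, which oxidises branched chains as well, was at 12.58, 12.68, 12.71 and 12.87 in the normals and 12.47, 12.21, 12.44 and 12.59 in the tumors. It differed by -0.29 ± 0.14, with tumor 4 just above the lowest normal (adjusted p = 0.183).

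Genes whose products occur in both organelles included 1 call. Crat, which joins acetyl groups to carnitine, was at 12.64 to 12.91 in the normals and 11.65 to 12.19 in the tumors, and fell by 0.87 ± 0.16 (adjusted p = 0.0200). Ech1, a dienoyl-CoA isomerase, differed by -0.59 ± 0.26 (0.160), Mlycd, which removes the inhibitor malonyl-CoA, by -0.36 ± 0.14 (0.133), and Amacr, the racemase of branched chains, by 0.17 ± 0.22 (0.561). The 4 tumors were below the 4 normals for Mlycd and overlapped them for Ech1 and Amacr.

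The contrast between the compartments was described by medians, with no test. The mitochondrial genes had a median difference of -0.55, with 10 of 18 lower and none higher, and the peroxisomal genes had a median of -0.27, with 3 of 11 lower and none higher. Over all genes 7.54% were lower and 7.0% higher. With the block the lower counts were 4 of 18 and 3 of 11, beside 5.03% of all genes, so the mitochondrial share was then no larger. Without normal 3 they were 11 of 18 and 4 of 11, beside 19.8% of all genes. In that setting 2 of the 11 peroxisomal genes, Acox2 and Acot4 by its brighter probe, were higher, under the 31.7% of all genes. The mean level of the 18 mitochondrial genes was 13.89, 13.98, 13.73 and 14.05 in the normals and 13.44, 13.22, 13.27 and 13.34 in the tumors, with a gap between the groups. That of the 11 peroxisomal genes was 12.63, 12.32, 12.70 and 12.49 against 12.32, 11.93, 12.19 and 12.24, where the lowest normal and the highest tumor lay side by side. This mean takes Acot4 by its brighter probe, with a difference of 1.13, although the second Acot4 probe gave -1.48. How near the groups lie thus depends on the probe taken for Acot4. Among the peroxisomal genes tumor 2 was the lowest tumor in 9 of 11, and among the mitochondrial genes tumor 1 was the highest tumor in 11 of 18.

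Of the 5 long-chain acyl-CoA synthetases, which activate fatty acids, Acsl4 was called higher and none lower. Acsl4, which prefers arachidonic acid, was at 13.11, 13.30, 13.29 and 13.39 in the normals and 14.18, 14.47, 14.34 and 14.22 in the tumors. Every tumor was above every normal, normal 3 included. Acsl4 rose by 1.03 ± 0.13, 2.04-fold, at an adjusted p of 0.0130 and of 0.0369 with the block, and its second probe by 1.37 (adjusted p = 0.0130 over probes). Its first probe lies at chrX:137564427-137564486 on mm8.

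No other synthetase was called. Acsl1, the main isoform of oxidative tissues, was at 14.40, 13.95, 13.81 and 14.00 in the normals and 13.72, 13.12, 13.40 and 13.65 in the tumors. Acsl3, an isoform of the endoplasmic reticulum and lipid droplets, was at 15.17, 15.52, 15.00 and 15.07 against 14.89, 14.53, 14.26 and 14.58. In both genes all tumors lay below all normals, the opposite order to Acsl4. The differences were -0.57 ± 0.19 for Acsl1 (adjusted p = 0.0906) and -0.63 ± 0.18 for Acsl3 (adjusted p = 0.0607), and without normal 3 both passed, at 0.0341 and 0.0254.

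Acsl5, abundant in intestinal mucosa, was at 14.45, 14.40, 14.42 and 14.39 in the normals and 14.27, 14.35, 14.41 and 14.35 in the tumors, a difference of -0.07 ± 0.11 (adjusted p = 0.634). Acsl6, known from brain, was low and scattered, at 7.17, 7.89, 6.79 and 8.33 against 7.24, 8.75, 7.53 and 6.91. Its groups overlapped, with a difference of 0.06 ± 0.48 (adjusted p = 0.929).

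Acyl-CoA thioesterases, which release free fatty acid from acyl-CoA, lie next to each other on chromosome 12 in the order Acot2, Acot1, Acot4 and Acot3, all read in the same direction. Neighbouring start sites are 21641, 27752 and 14890 bases apart on GRCm38.p6. Mitochondrial Acot2 was at 8.36, 9.15, 7.34 and 9.07 in the normals and 6.64, 6.41, 6.07 and 6.57 in the tumors. Cytosolic Acot1 was at 11.92, 12.10, 12.50 and 12.50 in the normals and 13.18, 12.81, 13.30 and 12.99 in the tumors. The groups were apart in both genes and in opposite order. Acot2 fell by 2.06 ± 0.40, 4.17-fold, the largest difference among the 39 (adjusted p = 0.0221, with the block 0.0387). All its tumors lay under the highest column limit, 7.70, at which Acot2 was not kept, so this size rests on low tumor values. Acot1 rose by 0.82 ± 0.19, 1.76-fold (adjusted p = 0.0332, with the block 0.0556).

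Peroxisomal Acot4 gave a different answer with each probe. Its brighter probe was at 9.84, 8.28, 10.98 and 8.16 in the normals and 10.73, 10.02, 10.85 and 10.18 in the tumors, a difference of 1.13 ± 0.63 that was not called (adjusted p = 0.217). Its second probe was at 10.57, 9.91, 10.01 and 9.86 against 8.90, 8.22, 8.39 and 8.95, a difference of -1.48 with an adjusted p of 0.0178 over all probes. By the first probe normal 3 was the highest of all 8 samples, and by the second all tumors were below all normals, so no direction is given for Acot4. Without normal 3 the first probe was called higher, with a difference of 1.68 (adjusted p = 0.0219). Acot3 lay between 4.00 and 5.52 in the normals and 5.21 and 5.71 in the tumors, around the detection limit of 5.59. These genes are close relatives, and hybridisation of a probe to its neighbours' transcripts was not tested.

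**Figure D3:**
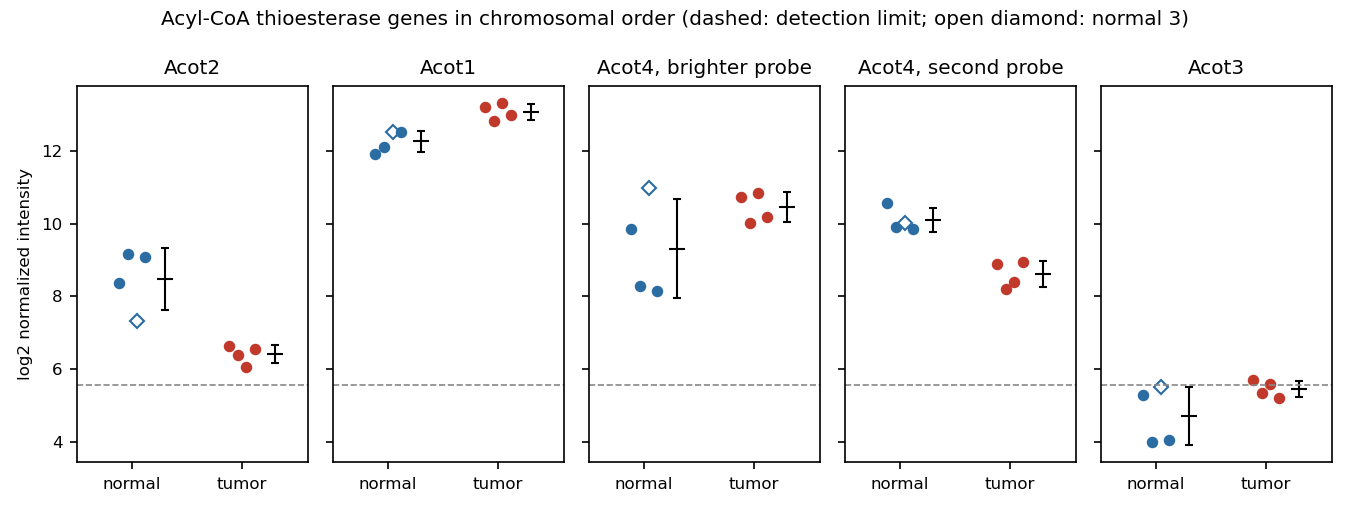
Level of the thioesterase genes of chromosome 12 in each sample (log2 normalised intensity, shared axis), in chromosomal order, with both probes of Acot4, the mean and SD beside each group, an open diamond for normal 3 and a dashed line at the detection limit of 5.59. Tumors lie below normals for Acot2 and the second Acot4 probe, above them for Acot1, and overlap them for the first Acot4 probe.

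The probes lie at chr12:84882869-84882928 for Acot2, chr12:84907250-84907309 for Acot1 and chr12:84932960-84933019 for the brighter Acot4 probe, on mm8. The windows before the pair that moved in opposite directions are shown for comparison; neither held a match to the PPAR element or the half-site. They are from RefSeq on GRCm38.p6, plus strand, at chr12:83987611-83987860 for Acot2 and chr12:84009252-84009501 for Acot1. The first has 6 CpG pairs and the second 4, against 17 in the window before Hadhb.
Acot2: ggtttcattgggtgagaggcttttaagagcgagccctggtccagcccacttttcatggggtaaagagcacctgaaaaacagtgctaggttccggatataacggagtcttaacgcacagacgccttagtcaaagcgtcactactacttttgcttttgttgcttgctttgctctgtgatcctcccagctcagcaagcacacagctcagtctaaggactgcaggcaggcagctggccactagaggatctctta
Acot1: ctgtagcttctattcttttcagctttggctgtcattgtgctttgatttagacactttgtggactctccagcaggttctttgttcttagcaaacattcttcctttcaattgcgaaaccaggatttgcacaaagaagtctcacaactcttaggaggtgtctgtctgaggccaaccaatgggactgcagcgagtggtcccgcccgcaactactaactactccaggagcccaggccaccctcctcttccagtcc

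Other genes of the pathway were counted in lists of their own, beside 7.54% of all genes lower and 7.0% higher. With the block these shares were 5.03% and 3.60%. Of 14 other genes of mitochondrial fatty acid entry and oxidation, 8 were lower and none higher (7 with the block), with a median difference of -0.76. The largest were Acsm3, a medium-chain acyl-CoA synthetase, at -1.81 ± 0.36, Acad11 at -1.78 ± 0.29, the carnitine carrier Slc25a20 at -1.12 ± 0.15 and Cpt1a, the gate of carnitine-dependent entry, at -1.01 ± 0.17. The product of Acad11 may act in both organelles, so its place in this list is uncertain. Cpt1a had normals of 14.04, 14.23, 14.12 and 14.33 and tumors of 13.24, 12.77, 13.21 and 13.47, whereas its partner Cpt2 overlapped between the groups, as given above. Of 18 other peroxisomal genes 4 were lower and none higher, with a median of -0.23. Among these were Baat, which conjugates bile acids, at -2.62 ± 0.67 (with the block an adjusted p of 0.0518; only 1 of 4 tumors reached the detection limit), the epoxide hydrolase Ephx2 at -1.35 ± 0.34 and Acot6 at -1.07 ± 0.22.

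Genes of the organelles themselves were counted beside the same background of 7.54% lower and 7.0% higher. Of 16 peroxisome assembly factors, 1 was lower, the import receptor Pex5 (-0.60, adjusted p = 0.0309, with the block 0.0568, where Pex2 was the 1 called), and none higher, with a median of -0.24. Of 23 general mitochondrial proteins 4 were lower and 2 higher, with a median of 0.08. Citrate synthase Cs (-0.76) and the porins Vdac2 (-0.59) and Vdac3 (-0.53) were lower, and the chaperonins Hspe1 (1.08) and Hspd1 (0.63) were higher; the count was 1 lower and none higher with the block. Mean levels of this list were 14.63 to 14.80 in the normals and 14.77 to 14.88 in the tumors, which overlap.

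Of 6 transcriptional regulators of fatty acid oxidation, 4 were lower with and without the block and none higher, with a median of -1.09. The shares over all genes were 7.54% lower and 7.0% higher, and 5.03% and 3.60% with the block. Ppara, the fatty acid-sensing receptor, was at 10.30, 9.91, 8.89 and 9.82 in the normals and 7.64, 7.11, 7.11 and 7.78 in the tumors. Normal 3 was the lowest normal and still above all tumors, and the difference was -2.32 ± 0.32, 4.99-fold (adjusted p = 0.0149). Tumors 1 to 3 lay under the highest column limit, 7.70, so this size rests on low tumor values. The coactivators Ppargc1b and Ppargc1a differed by -1.85 ± 0.33 (adjusted p = 0.0197) and -1.48 ± 0.21 (0.0149), and Rxra, the partner of Ppara, by -0.70 ± 0.14 (0.0231). Ppard and Esrra were not called, at -0.02 ± 0.22 and -0.23 ± 0.15. Of 12 genes of fatty acid synthesis 1 was higher, the desaturase Fads1 (1.28), and 1 lower, Acly (-1.09), and of 9 of fatty acid uptake 1 was higher, Slc27a3 (0.78), and 1 lower, Slc27a4 (-0.57), neither with the block.

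**Figure D4:**
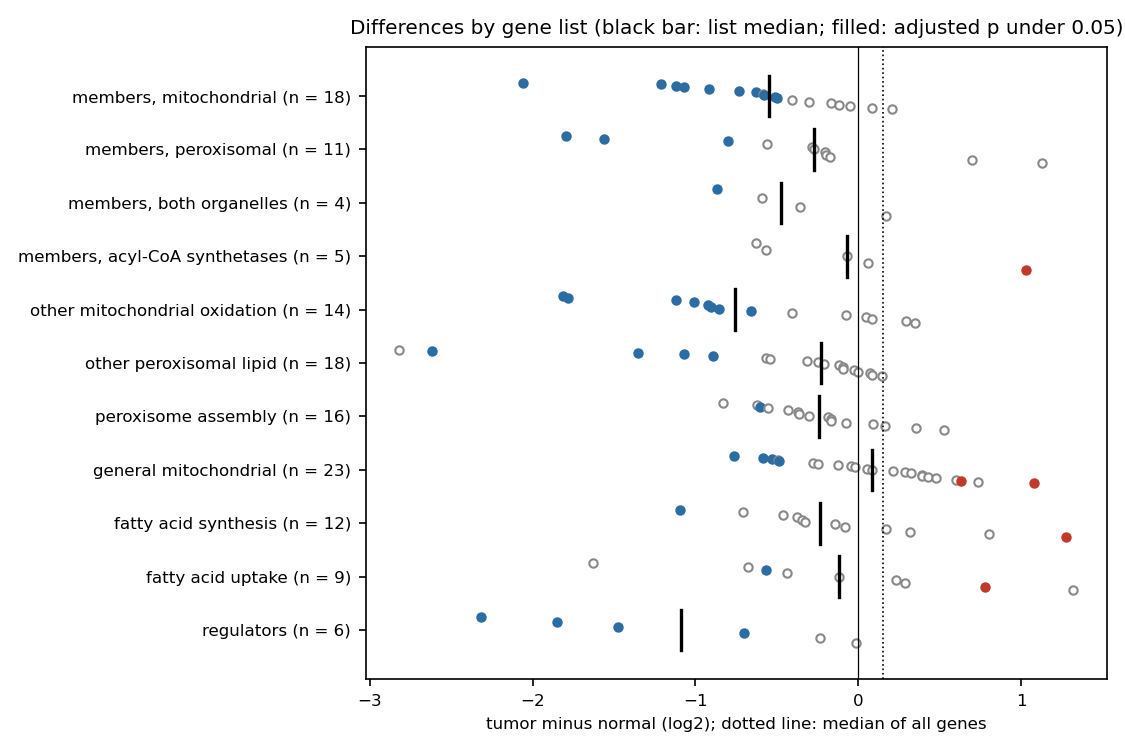
Difference between tumor and normal (log2) of each gene in 11 lists, with the number of genes compared in brackets, filled blue points for genes called lower, filled red for higher, open grey for the rest, and a black bar at the list's median. Every bar but that of the 23 general mitochondrial proteins (0.08) lies left of 0, the nearest being that of the synthetases (-0.07). Furthest left are the 6 regulators (-1.09), the 14 other mitochondrial oxidation genes (-0.76) and the 18 mitochondrial members (-0.55). The bar of the general mitochondrial proteins lies near the median of all genes, 0.15 (dotted).

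Markers of some cell types moved with the groups as well. Over all genes 7.54% were called lower and 7.0% higher, and 5.03% and 3.60% with the block. Of 7 colonocyte markers 5 were lower (3 with the block), and their mean level was 16.83 to 17.15 in the normals and 14.51 to 16.07 in the tumors. None of 7 epithelial markers was called, though 6 of the 7 differences lay below 0, with a median of -0.37. Without normal 3, 4 of them were called lower and 1 higher, beside 19.8% and 31.7% of all genes. The mean level of the 7 was 17.76 to 18.13 in the normals against 17.61 to 17.77 in the tumors. Neutrophil markers were higher in 4 of 4, at mean levels of 6.45 to 10.71 against 11.79 to 13.84, with normal 3 the highest normal, and macrophage markers in 3 of 5 (2 with the block), at 12.03 to 12.79 against 13.41 to 13.56. Of the T and B cell markers 1 of 6 was higher (none with the block), and of the endothelial markers 1 of 4. A single call in so short a list was not read as a shift. None of 6 smooth muscle, 5 fibroblast, 4 adipocyte and 5 small intestine markers was called. Smooth muscle markers averaged 14.55 in normal 3 and 15.51, 16.80 and 16.69 in normals 1, 2 and 4, and small intestine markers 11.13 in normal 3 and 8.19 to 9.40 in the other normals. The part of these shifts in the lower levels of the oxidation genes was not tested.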

How the data were processed

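The 8 samples were 4 tumors and 4 normals, grouped by title. Per the file headers, the deposited scanner files hold background-subtracted intensity values from Agilent Feature Extraction 9.5.1.1 on design 014868, with probe coordinates on mm8; the submitters' processing notes name version 10.1.1.1. The deposited table of log2 values was taken as quantile-normalised by the authors, because its columns share a median of 8.51 and an upper quartile of 11.4; no label states its scale. Its traced columns rise by 0.891 to 1.06 per log2 unit of scanner intensity.

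A probe was kept where its value reached 5.59 on at least 4 of 8 arrays. Among probes that the scanner software did not flag as above background, the 95th percentile was found in each of the 4 traced columns, and the limit is the median of these. This left 31871 of 41174 probes and 21638 genes, named through RefSeq (GRCm38.p6) by accession (24375 probes), symbol (6301) or synonym (2426), with 8072 keeping the name in the file; 1 member was found under an older symbol, Eci1 as Dci. The test was that of limma 3.58.1 under R 4.3.3, with lmFit and eBayes, 2-sided and adjusted over all genes. This procedure was tested on simulated data with independent noise, equally spread over the arrays. Those data held no outlying sample and no pairing, so they cannot show how the procedure handles either. The number of arrays limits the precision, and the share of probes well above background was 55.6% to 82.8% over the scanner files. Samples with the same title number deviated together from their group means (r = 0.238, 0.356, 0.534 and 0.362 for numbers 1 to 4). Tumors 1 and 4, however, correlated more with a normal of another number, so whether the numbers pair the samples is not settled. The numbers were used as a block in an alternative fit, and its values stand beside results whose call or count they change.

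Values in every sample are given for called members with a difference of at least 1 and for the Acsl, Acot, Acaa1 and Acox families, and from other lists the 4 largest called; 1 gene of these lists is not reported here. The members and lists were chosen with earlier results of these data known. Alternatives were the dim-probe limit, the probe rule, centring, scanner values, a trend, array weights, the block and leaving out each sample; counts without normal 3 were singled out after the data were seen.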

Additional observations from a re-analysis of the deposited data

Results flagged for a closer look

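Of 78 groups of 4 samples, 6 had 1 sample far from the other 3, and chance alone flags about 1 in 20. For Acadvl this was so in both groups, with normal 4 at 15.37 above 15.21 to 15.22 and tumor 4 at 15.13 above 14.87 to 14.91. In Acad9 it was tumor 3 at 13.45, above 12.98 to 13.02. Etfa had normal 3 low, at 15.46 below 15.71 to 15.75, and Acot8 had tumor 2 low, at 14.09 below 14.41 to 14.44. For Hacl1 it was tumor 4 at 7.79, above 7.40 to 7.43, and still below every normal.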

How the results depend on the processing

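The source of the values mattered most. With the scanner values as filed, plain, with normexp or with slide as a block, limma called 0 genes, 0 members lower and 0 higher (408, 506 and 298 genes at an unadjusted p under 0.05); the mitochondrial median was 0.095, 0.069 and 0.095, and the peroxisomal one 0.42 in each. Plain and with normexp, signs turned for Hadh (0.44 and 0.44), Ehhadh (0.42 and 0.42), Hacl1 (0.33 and 0.066), Acaa2 (0.32 and 0.30), Crat (0.25 and 0.30), Etfdh (0.13 and 0.12), Decr2 (0.12 and 0.15), Etfa (0.11 and 0.090), Hadhb (0.079 and 0.024) and Acsl4 (-0.45 and -0.44), and plain only for Acot2 (0.051); the slide block left the plain values as they were. These files differ from the table in which array stands for which sample, and which is right was not tested. Array weights called 14786 of 21638 genes, with 24 of 39 members lower and 6 higher, so that most genes were called, members or not. Normal 3 and normal 1 had the lowest weights in that fit, 0.117 and 0.298, against 0.980 to 2.38 for the others. The replicate block called 1869 genes, with 8 members lower and 1 higher, and changed no other call among the 16 than those given. Leaving out 1 sample gave 21 to 11136 genes, 0 to 18 members lower and 0 to 4 higher, lowest without tumor 3 and highest without normal 3. Without a filter Etfa (adjusted p = 0.0549) and Etfdh (0.0511) were lost, and the highest limit dropped Acot2. The lowest limit, the mean of probes, centring and a trend kept all 16 calls. Counting the genes of both organelles with either side left the medians at -0.55 and -0.29.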
